A study of Homo sapiens with 6 samples.

Results

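A set of 10 genes that store, import, sense and carry iron was followed in HCCLM3, a metastatic human liver cancer line, after an antisense oligonucleotide against SCARNA13 (ASO, a synthetic DNA-like strand complementary to its target RNA). They were taken by gene name: FTL, FTH1, TFRC, SLC11A2, SLC39A14, IREB2, NCOA4, STEAP3, PCBP1 and PCBP2, each listed once, 10 of 58302 genes in all. Both groups came from the same line, were transfected, and held 3 libraries each: one received Control ASO and the other SCARNA13 ASO. Sequences, doses and harvest times of the ASOs are not stated in the labels. The labels do not say whether libraries of a group are separate cultures. The p-values therefore cover the spread between these libraries alone, which may be technical. In bulk RNA, fewer cells of a type and less RNA per cell cannot be told apart.

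Each library held between 20457474 and 25173559 reads assigned to genes, and levels are in FPKM, reads scaled by gene length and library size. SCARNA13, a small Cajal body-specific RNA, was covered by 6, 5 and 2 reads in the controls and 2, 3 and 2 reads after SCARNA13 ASO, too few to resolve a decrease. The replicate 3 libraries stood apart in both groups and followed the GC content of the genes. Estimates for the 9 of the 10 genes that were tested are therefore given with and without them. Markers did not place the line close to liver: 1 of 10 hepatocyte and liver cancer markers averaged at least 1 FPKM (SERPINA1, at 2.06 FPKM), while ALB, APOA2, APOB and FGB had no read. The keratins KRT8, KRT18 and KRT19 of simple epithelium were abundant and CDH1 had no read. Erythroid and endothelial markers reached 1 FPKM for 0 of 6 and 0 of 4 genes. Summed macrophage and immune markers ranged from 2.89 to 6.89 FPKM in controls and from 2.26 to 3.41 FPKM after SCARNA13 ASO, most of it CD14, with CD163 and LYZ at 0. Of 5 fibroblast markers 1, COL3A1, averaged at least 1 FPKM (5.71 FPKM), and their sum ranged from 5.83 to 6.87 FPKM in controls and from 6.24 to 8.39 FPKM after SCARNA13 ASO. The part of these other markers in the results below was not tested.

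Cells take up iron bound to transferrin through the transferrin receptor, reduce it in the endosome, pass it to the cytosol through a divalent metal transporter, and keep what they do not use inside ferritin, a shell of heavy and light chains. A pair of RNA-binding proteins, the iron regulatory proteins, adjust this at the level of mRNA: when iron is scarce they bind hairpins called iron-responsive elements. Binding near the start of ferritin mRNA blocks translation, and binding in the tail of transferrin receptor mRNA slows its decay. In such a system ferritin protein can change with no change in its mRNA, so the RNA levels below do not measure ferritin protein.

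The hairpins are shown because they are the sequences through which this control acts on ferritin and transferrin receptor mRNA. They were searched for in the untranslated regions of all coding transcripts of GENCODE 29 (GRCh38) as CNNNNNCAGTGN, on the transcript strand only, with the 5 bases before the loop able to pair with the 5 bases after it (G-T pairs allowed). FTL and FTH1 held 1 each in the 5′ UTR and TFRC held 4 in the 3′ UTR, and a hairpin of this form was found in 0.853% of 19684 coding genes. The 6-base loop is in capitals, in windows of 30 bases:
FTL, 5′ UTR, chr19:48965335-48965364, plus strand: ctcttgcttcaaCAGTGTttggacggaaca
FTH1, 5′ UTR, chr11:61967573-61967602, minus strand: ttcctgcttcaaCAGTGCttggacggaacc
TFRC, 3′ UTR, chr3:196050978-196051007, minus strand: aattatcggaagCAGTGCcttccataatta
TFRC, 3′ UTR, chr3:196050574-196050603, minus strand: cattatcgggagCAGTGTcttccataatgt
TFRC, 3′ UTR, chr3:196050509-196050538, minus strand: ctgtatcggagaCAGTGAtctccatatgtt
TFRC, 3′ UTR, chr3:196050462-196050491, minus strand: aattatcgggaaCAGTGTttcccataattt
The FTL and FTH1 windows are identical at 26 of 30 bases. The other 7 genes held no hairpin of this exact form, which says only that these letters and pairs are not there. A hairpin with another loop or with unpaired bases in this stem would be missed. The search therefore cannot decide whether SLC11A2 or others of the 7 carry iron-responsive elements, or whether TFRC carries more than those listed.

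Ferritin light chain was the most abundant transcript of the cells, and IREB2 was the lowest of the 10. FTL ranked 1st of all genes in 6 of 6 libraries and took 1.30%, 1.28% and 2.46% of reads in the controls and 1.42%, 1.28% and 2.02% after SCARNA13 ASO. FTH1 followed at 18.6 to 37.1 times lower, then PCBP1 and PCBP2. FTL, FTH1 and PCBP1 each exceeded the next of these in 6 of 6 libraries with no overlap of ranges. PCBP2 exceeded STEAP3 in 6 of 6 libraries, with overlapping ranges. PCBP2, STEAP3 and SLC39A14 lay close together, and STEAP3 exceeded SLC39A14 in only 4 of 6 libraries. NCOA4 exceeded TFRC in 6 of 6 libraries though their ranges overlapped. SLC11A2 exceeded IREB2 in 6 of 6 libraries, with overlapping ranges.

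**Figure D1:**
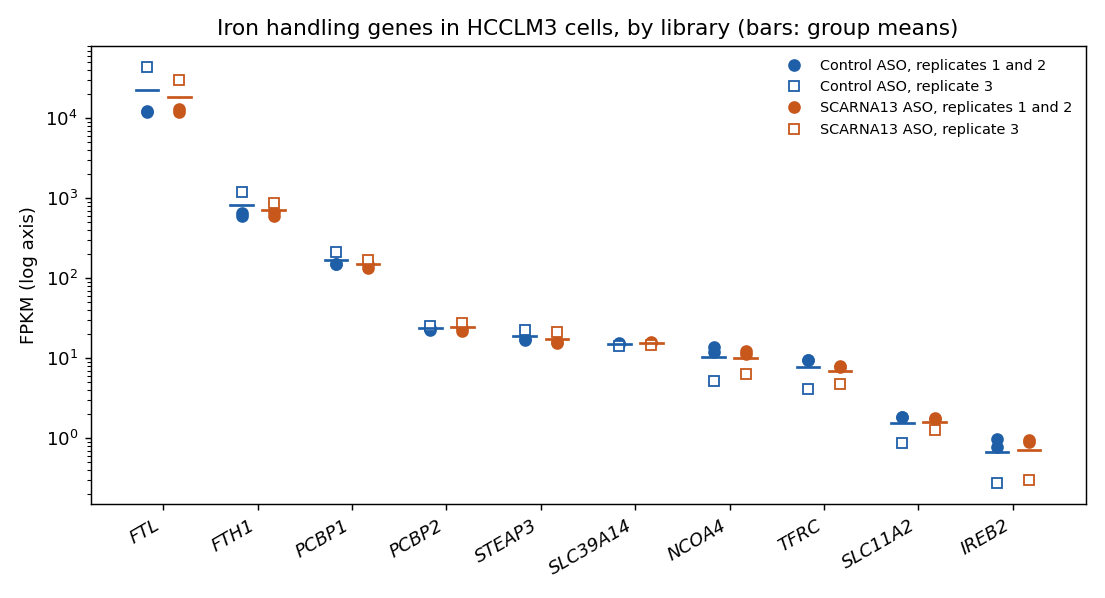
Level of each of the 10 genes in FPKM on a log axis, one point per library, with Control ASO in blue and SCARNA13 ASO in orange, replicate 3 as open squares and group means as bars. The groups overlapped for every gene. Replicate 3 sat above the other libraries for FTL, FTH1, PCBP1, PCBP2 and STEAP3 and below them for NCOA4, TFRC, SLC11A2, SLC39A14 and IREB2.

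The storage genes did not differ between the groups beyond the spread of the libraries. FTL (ENSG00000087086, 19:48965301-48966878, GRCh38) encodes the light chain, which promotes nucleation of the mineral core. It measured 12219.8, 11964.5 and 44152 FPKM in Control ASO replicates 1, 2 and 3, and 13095.7, 11913 and 30235.9 FPKM in SCARNA13 ASO replicates 1, 2 and 3. Replicate 3 was the high library in both groups and the groups overlapped. The control mean was 22779 FPKM ± 18510.2 and the treated mean 18415 FPKM ± 10254.4 (SD, n = 3 each). Divided by the control of the same number, the treated libraries gave ratios of 1.07, 0.996 and 0.685. The log2 fold change of FTL over all libraries, -0.15 ± 0.63 (SE, n = 3), did not pass (limma-trend adjusted p = 1.0). Without replicate 3 in both groups it was 0.047.

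FTH1 (ENSG00000167996, 11:61959718-61967660, minus strand) encodes the heavy chain, whose ferroxidase activity oxidizes iron for storage. Its controls were 658.1, 607.3 and 1190.1 FPKM and its treated libraries 682.6, 602.0 and 871.6 FPKM. As for FTL, the replicate 1 and 2 libraries of both groups were nearly level and replicate 3 was high, more so in the control. Means were 818.5 FPKM ± 322.8 and 718.8 FPKM ± 138.4 (SD, n = 3). The log2 fold change of FTH1 was -0.14 ± 0.35 over all libraries (SE, n = 3; limma-trend adjusted p = 1.0) and 0.020 without replicate 3. The height of replicate 3 depends on the scaling for this gene: as a share of reads, FTH1 took 0.161%, 0.150% and 0.153% in controls and 0.171%, 0.149% and 0.135% after SCARNA13 ASO, so that replicate 3 was not the highest. The library size implied by FPKM was 0.633 and 0.760 times the reads of replicate 3 and 1.21 to 1.24 times those of the other libraries.

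The ratio of light to heavy chain mRNA separated the replicate numbers and not the groups. FTL exceeded FTH1 by 18.6, 19.7 and 37.1 times in the controls and by 19.2, 19.8 and 34.7 times after SCARNA13 ASO. Both genes have many processed pseudogene copies, with which reads could be exchanged, so their absolute levels carry that uncertainty. The files list 25 pseudogenes of FTH1 and 14 of FTL, and their reads amounted to at most 1.84% of the FTH1 reads and 0.0254% of the FTL reads in any library. FTH1P8, FTH1P2 and FTH1P7 were the highest, at means of 13.7, 13.4 and 12.3 FPKM over the 6 libraries. Each was higher after SCARNA13 ASO in 3 of 3 pairs, as were 23.9% of all genes tested. With GC correction and replicate number as a block, FTH1P8 passed (0.29 ± 0.051; SE, n = 3; limma-trend adjusted p = 0.0477), as did 5.21% of all genes. With no filter on low values it did not (limma-trend adjusted p = 0.195). Exons of BEST1 on the opposite strand cover 1267 of the 2030 exonic bases of FTH1, and BEST1 itself averaged 0.0529 FPKM.

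NCOA4 (ENSG00000266412, 10:46005088-46030714, minus strand) encodes the cargo receptor that carries ferritin to the autophagosome and so releases its iron. It stood at 11.8, 13.7 and 5.15 FPKM in the controls and at 12.2, 11.4 and 6.31 FPKM after SCARNA13 ASO. The pairs went both ways, with treated to control ratios of 1.03, 0.831 and 1.22. Replicate 3 held less than any other library, the opposite of the ferritin chains on the FPKM scale.

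Among uptake genes, the transferrin receptor was lower in replicates 1 and 2 of the treated group and higher in replicate 3. TFRC (ENSG00000072274, 3:196027183-196082189, minus strand) measured 9.57, 9.62 and 4.11 FPKM in the controls and 7.84, 8.07 and 4.74 FPKM after SCARNA13 ASO. Treated to control ratios within pairs were 0.820, 0.838 and 1.15, from 2295, 2021 and 424 reads in the controls and 1679, 1814 and 581 reads in the treated libraries. Both replicate 3 libraries lay below all others, the groups overlapped, and the exact two-sided permutation test gave p = 0.6. In a fit of replicates 1 and 2 alone, added after the data were seen, TFRC was the only 1 of the 9 tested genes to pass, at a log2 fold change of -0.26 ± 0.049 (SE, n = 2; limma-trend adjusted p = 0.0438). In the same uncorrected and unblocked fit 922 of 10120 genes passed (9.11%), 457 of them higher (4.52%) and 465 lower (4.59%), so a single call among 9 genes is near the background. At an unadjusted p under 0.05 it held 2 of the 9, TFRC and STEAP3, against 30.5% of all genes. The replicate 1 and 2 libraries of the groups did not overlap for 4 of the 9 (TFRC, SLC11A2, STEAP3 and PCBP1), against 61.5% of all genes. The TFRC call was lost when GC correction and the replicate number as a block were applied to those 4 libraries (-0.24, limma-trend adjusted p = 0.0601). With that correction and block, the TFRC estimate over all 3 pairs was -0.13 ± 0.092 (SE, n = 3; limma-trend adjusted p = 0.381).

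STEAP3 (ENSG00000115107, 2:119223831-119265652), the endosomal ferrireductase, was lower in each treated library than in the control of the same number. Its controls were 17.5, 16.9 and 22.6 FPKM and its treated libraries 15.7, 15.4 and 21.1 FPKM, giving ratios of 0.900, 0.911 and 0.935. The groups still overlapped, since the treated replicate 3 exceeded both other controls. STEAP3 did not pass in the test over all libraries, in the GC-corrected and blocked fit (-0.060 ± 0.067; SE, n = 3; limma-trend adjusted p = 0.571) or in replicates 1 and 2 alone (-0.14 ± 0.047; SE, n = 2; limma-trend adjusted p = 0.125). Exons of STEAP3-AS1, on the other strand, cover 500 of its 4562 exonic bases.

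SLC11A2 (ENSG00000110911, 12:50979401-51028566, minus strand), the divalent metal transporter DMT1 that passes iron out of the endosome, was low in this line. The controls held 1.84, 1.87 and 0.871 FPKM and the treated libraries 1.78, 1.74 and 1.28 FPKM, from 112 to 551 reads. Ratios within pairs were 0.964, 0.930 and 1.47, with the last pair opposite to the others. SLC39A14 (ENSG00000104635, 8:22367249-22434129) encodes ZIP14, a transporter for iron not bound to transferrin. On the FPKM scale it varied little between libraries, with 15.7, 15.2 and 14.0 FPKM in the controls and 16.1, 15.5 and 14.5 FPKM after SCARNA13 ASO. Each treated library was higher in FPKM than its control, at ratios of 1.03, 1.02 and 1.03. Its reads varied more, with 3306, 2814 and 1276 in the controls and 3033, 3065 and 1566 after SCARNA13 ASO. None of the 4 uptake genes passed the test over all libraries.

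IREB2 (ENSG00000136381, 15:78437431-78501456), which encodes iron regulatory protein 2, averaged under 1 FPKM and was therefore left out of the tests over all genes. It measured 0.971, 0.768 and 0.276 FPKM in the controls and 0.948, 0.906 and 0.298 FPKM in the treated libraries, from 39 to 319 reads. The groups overlapped (exact two-sided permutation p = 0.9). With no filter on low values, IREB2 differed by 0.055 ± 0.37 on the log2 scale (SE, n = 3; limma-trend adjusted p = 1.0).

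The iron chaperones PCBP1 and PCBP2 are RNA-binding proteins that also deliver iron to ferritin. PCBP1 (ENSG00000169564, 2:70087454-70089203), a gene of a single exon, stood at 150.4, 149.7 and 211.4 FPKM in the controls and 134.4, 148.9 and 171.1 FPKM after SCARNA13 ASO. All 3 pairs were lower in the treated library, at ratios of 0.894, 0.994 and 0.809. PCBP2 (ENSG00000197111, 12:53452102-53481162) stood at 23.9, 22.8 and 25.3 FPKM against 24.1, 21.9 and 27.7 FPKM, with pairs on both sides of 0. PCBP1 exceeded PCBP2 by 6.29, 6.56 and 8.36 times in the controls and by 5.58, 6.81 and 6.18 times after SCARNA13 ASO. Exons on the opposite strand overlap both: PCBP1-AS1 over 914 of 1750 exonic bases of PCBP1, and MAP3K12, at 6.26 FPKM, over 1494 of 7926 of PCBP2.

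Taken as a list, the genes gave 0 calls. The first test, limma-trend on log2(FPKM + 0.5) with a floor of 1 FPKM on the mean over libraries, took in 9 of the 10 genes and called 0 of them at an adjusted p of 0.05. It called 0 of all 10120 genes too (0.0%), with 173 at an unadjusted p under 0.05 (1.71%), among which were 0 of the 9. limma-voom on recovered reads called 0 genes as well, and its 162 genes at an unadjusted p under 0.05 included 0 of the 9. The first test had little resolution: the median standard error of the 9 was 0.28 on the log2 scale. It did not call EPAS1 either, an iron gene described below, at treated to control ratios of 2.17, 2.22 and 2.36. Its 0 calls alone therefore do not exclude changes of that size among the 9. The 95% interval of the first test for FTL, 0.310 to 2.62-fold, held rises of that size. Intervals of the other tested genes stayed between 0.484-fold (TFRC) and 2.10-fold (NCOA4), below the EPAS1 ratios. The median log2 fold change of the 9 was -0.11, against -0.025 for all genes tested. The groups overlapped for all 10 genes, whereas they did not for 854 of the 10120 tested (8.44%). Within pairs, 2 members were lower and 1 was higher in 3 of 3, while 29.6% and 23.9% of all genes tested were so.

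A fit that subtracted each library's trend with GC content and used the replicate number as a block called 526 of 10104 genes (5.21%), 309 higher (3.06%) and 217 lower (2.15%), and again 0 of the 9. An unadjusted p under 0.05 was reached by 3167 genes (31.3%) and by 0 of the 9. The smallest adjusted p of the list was 0.288 in limma-trend, for PCBP1 (-0.10 ± 0.057; SE, n = 3). The 95% limits on the change of each gene depended on the fit. In the first test intervals were wider, from 0.310 to 2.62-fold for FTL and from 0.758 to 1.39-fold for SLC39A14. In replicates 1 and 2 alone, with no correction or block, TFRC ran from 0.768 to 0.913-fold. In the corrected and blocked fit they ran from 0.941 to 1.13-fold for SLC39A14, from 0.934 to 1.13-fold for PCBP2 and from 0.843 to 1.03-fold for PCBP1. FTL had the widest, from 0.696 to 1.27-fold, and FTH1 ran from 0.750 to 1.14-fold and TFRC from 0.777 to 1.08-fold. Intervals were 0.851 to 1.18-fold for NCOA4, 0.852 to 1.08-fold for STEAP3 and 0.861 to 1.28-fold for SLC11A2. Changes inside these intervals were not resolved, and larger ones are not excluded, since the limits hold for the corrected and blocked fit alone. A p above the threshold does not show that levels were equal.

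**Figure D2:**
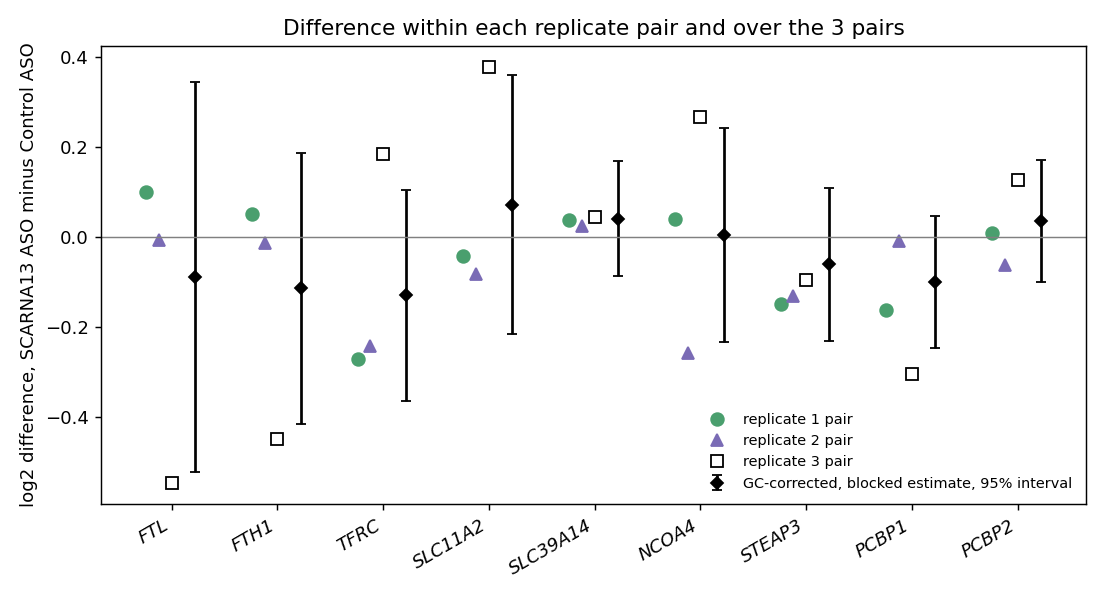
Log2 difference, SCARNA13 ASO minus Control ASO, for the 9 genes tested: circles, triangles and open squares are replicate pairs 1, 2 and 3 on deposited values, and diamonds are the GC-corrected, blocked estimates with 95% intervals. All 9 intervals include 0, and the replicate 3 pair lies on the other side of 0 from both other pairs for TFRC and SLC11A2.

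On the FPKM scale the replicate 3 libraries held more of both ferritin chains and less TFRC and NCOA4 than replicates 1 and 2 of their group. In the control group FTL was 3.65-fold higher in replicate 3 than in the mean of replicates 1 and 2 on the log2(FPKM + 0.5) scale, and in the treated group 2.42-fold. Those shifts, 1.87 and 1.28 in log2 units, compare with medians of 0.79 and 0.62 for the GC decile of the gene, and exceeded 96.1% and 89.6% of all genes tested. FTH1 shifted by 0.91 and 0.44, where its GC class had medians of -0.031 and 0.026. TFRC shifted by -1.13 and -0.69 and NCOA4 by -1.23 and -0.85, with class medians of -0.76 and -0.66 for TFRC and -0.55 and -0.43 for NCOA4. Over all genes tested the median shift ran from -0.94 in the lowest GC decile to 1.52 in the highest in controls, and from -0.83 to 1.21 after SCARNA13 ASO. After the GC correction the shift of FTL was still 1.02 in controls and 0.59 after SCARNA13 ASO, and that of FTH1 0.80 and 0.32. That of TFRC was then -0.45 and -0.10, and that of NCOA4 -0.67 and -0.39. On the FPKM scale the rise in replicate 3 was not limited to storage genes. Before correction STEAP3 shifted by 0.38 and 0.43, PCBP1 by 0.49 and 0.27 and PCBP2 by 0.11 and 0.27. After it STEAP3 stood at -0.53 and -0.31, PCBP1 at -0.25 and -0.33, and PCBP2 at 0.18 and 0.29. In recovered reads, replicate 3 was the lowest library of its group for STEAP3, PCBP1 and PCBP2. PCBP1 had 8006, 6976 and 4843 reads in controls, where library totals were 25173559, 21864034 and 20663908 reads. The rise of these genes in replicate 3 thus depends on the scaling. The labels give replicate 3 no other culture, date or kit, and what sets it apart was not tested.

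**Figure D3:**
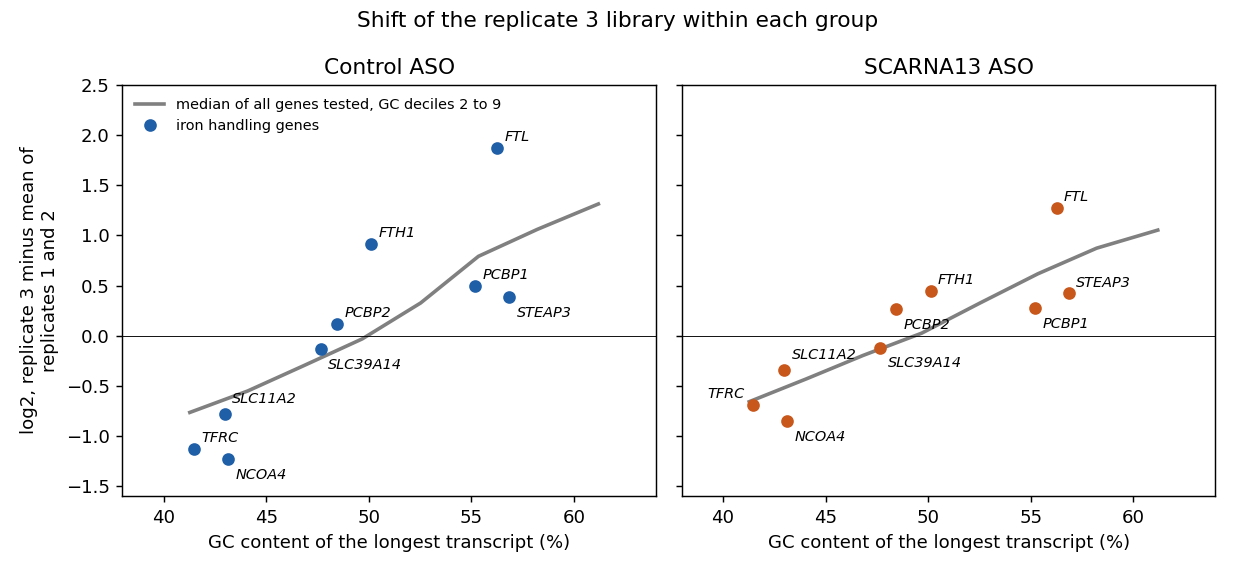
Log2 level of the replicate 3 library minus the mean of replicates 1 and 2, for each group, against GC content of the gene's longest transcript: points are the 9 iron handling genes tested and the line joins the medians of GC deciles 2 to 9 over all genes tested. FTL and FTH1 lie above the line in both groups (FTL at 1.87 and 1.28), and NCOA4 and STEAP3 lie below it.

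Levels over the 6 libraries followed replicate 3 closely enough that many genes share the same pattern. Log2 levels of FTL and FTH1 correlated at r = 0.976 over the 6 libraries, as a description. The protein-coding genes most like FTL were LRFN3, TUBB and SNU13, each at r = 1.0 after rounding, and those most like FTH1 were OSR1 (0.998), FMC1 (0.997) and C8orf33 (0.996). Of 8887 genes compared, 2765 exceeded 0.95 with FTL and 1231 with FTH1. TUBB, the tubulin gene, shows the shape: 639.9, 619.5 and 1598.7 FPKM in controls and 650.4, 626.8 and 1218.4 FPKM after SCARNA13 ASO.

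Other genes of iron metabolism were read from 9 lists, of which 95 genes were in the files and 70 were tested. The first test called 0 of the 70, with 1 at an unadjusted p under 0.05, and limma-voom also called 0, with 1. With GC correction and block, 5 rose, 1 fell and 64 did not pass, or 8.57% called against 5.21% of all genes. The liver side of systemic iron control was hardly expressed: transferrin (TF), hepcidin (HAMP), ceruloplasmin (CP) and the second transferrin receptor TFR2 averaged 0.00136, 0.0110, 0.0101 and 0.00814 FPKM, and the iron exporter SLC40A1 0.298 FPKM. Of 8 genes of iron export and the hepcidin axis, only ERFE, the erythroid hormone gene, was tested, and it did not pass.

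In the iron uptake and reduction list 0 of 5 tested genes passed, with a median of 0.22 on the log2 scale. CYBRD1, a ferric reductase, stood at 6.29, 6.21 and 3.00 FPKM in controls and 7.86, 7.18 and 3.55 FPKM after SCARNA13 ASO, higher in 3 of 3 pairs (0.22 ± 0.068; SE, n = 3; limma-trend adjusted p = 0.112). Iron sensing and turnover of the regulatory proteins also gave 0 of 5. FBXL5, the ligase that marks iron regulatory protein 2 for breakdown when iron is plentiful, measured 8.78, 9.33 and 25.1 FPKM in controls and 6.77, 6.62 and 9.96 FPKM after SCARNA13 ASO. It was lower in 3 of 3 pairs, with one control far above the rest, and did not pass (-0.73 ± 0.21; SE, n = 3; limma-trend adjusted p = 0.0969). In replicates 1 and 2 alone, with no correction or block, FBXL5 fell by 0.41 ± 0.056 on the log2 scale (SE, n = 2; limma-trend adjusted p = 0.0259). That fit called 9 of the 70 list genes, against 9.11% of all genes. HFE of the uptake list was among them (0.40 ± 0.078; SE, n = 2; limma-trend adjusted p = 0.0453), with 1 rise and 1 fall in the mitochondrial list. With GC correction and block, ACO1, iron regulatory protein 1, stood at 0.092 ± 0.083 (SE, n = 3; limma-trend adjusted p = 0.482). Among genes of ferritin turnover 0 of 6 passed. HERC2, a ligase that marks NCOA4 for degradation, was higher in every treated library at 2.90, 2.92 and 2.94 FPKM against 2.17, 2.46 and 2.15 FPKM (0.36 ± 0.087; SE, n = 3; limma-trend adjusted p = 0.0716).

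Genes with a known iron-responsive element outside the 10 included 1 call among 3 tested. EPAS1, which encodes hypoxia-inducible factor 2 alpha, a regulator of iron transport genes, rose with no overlap of the groups, from 3.99, 3.76 and 2.98 FPKM to 8.67, 8.33 and 7.05 FPKM (1.11 ± 0.067; SE, n = 3; limma-trend adjusted p = 0.0241). CD63, a tetraspanin of vesicles that can carry ferritin out of cells, stood at -0.10 ± 0.076 (SE, n = 3; limma-trend adjusted p = 0.405).

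Iron chaperones and cytosolic iron-sulfur transfer held 2 rises among 8 tested genes. PCBP4, a paralog of PCBP1 and PCBP2, measured 11.8, 12.04 and 32.5 FPKM in controls and 16.2, 15.8 and 40.1 FPKM after SCARNA13 ASO and rose by 0.44 ± 0.058 (SE, n = 3; limma-trend adjusted p = 0.037). NUBP2, a scaffold for cytosolic iron-sulfur clusters, measured 24.3, 27.1 and 106 FPKM against 28.6, 34.7 and 111 FPKM and rose by 0.28 ± 0.047 (SE, n = 3; limma-trend adjusted p = 0.0457). MMS19 and CIAPIN1 of the same pathway stood at -0.21 ± 0.054 and -0.23 ± 0.065 without passing. In the mitochondrial list 0 of 18 passed, and its genes lay on both sides of 0. FDXR, ferredoxin reductase, stood at -0.35 ± 0.067 (SE, n = 3; limma-trend adjusted p = 0.0517), the mitochondrial iron importer SLC25A37 at -0.33 ± 0.099 and the cluster carrier NFU1 at 0.33 ± 0.077.

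Heme genes gave 1 rise and 1 fall among 14 tested. BLVRB, biliverdin reductase B of heme breakdown, measured 85.4, 80.3 and 242 FPKM in controls and 111, 115 and 266 FPKM after SCARNA13 ASO and rose by 0.41 ± 0.056 (SE, n = 3; limma-trend adjusted p = 0.038). ALAS1, the first and rate-limiting enzyme of heme synthesis, measured 48.3, 44.7 and 68.4 FPKM against 37.4, 35.7 and 48.5 FPKM and fell by 0.36 ± 0.052 on the log2 scale (SE, n = 3; limma-trend adjusted p = 0.0394). UROS, a later enzyme of heme synthesis, did not pass at 0.34 ± 0.080 (SE, n = 3; limma-trend adjusted p = 0.0702), although its groups did not overlap. In the list of ferroptosis defence and lipid peroxidation, 1 of 10 rose: SLC7A11, the cystine transporter, went from 2.88, 2.73 and 1.24 FPKM to 4.77, 4.19 and 1.94 FPKM (0.54 ± 0.083; SE, n = 3; limma-trend adjusted p = 0.0412). ACSL4, NFE2L2 and KEAP1 of that list stood at 0.26 ± 0.092, -0.18 ± 0.082 and -0.20 ± 0.068 without passing. These 6 calls depended on the libraries and on the filter. Without replicate 1 or without replicate 2 of both groups the same fit called 0 of the 70 (18 at an unadjusted p under 0.05 in each) and 14 and 0 of all genes, and without replicate 3 it called 8 and 763. With no filter on low values it called 0 of all genes (3651 at an unadjusted p under 0.05), and the limma-trend adjusted p of the 6 ran from 0.177 for EPAS1 and PCBP4 to 0.210 for NUBP2 and BLVRB. In replicates 1 and 2 alone, with no correction or block, EPAS1, PCBP4, BLVRB, ALAS1 and SLC7A11 passed and NUBP2 did not (limma-trend adjusted p = 0.147).

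**Figure D4:**
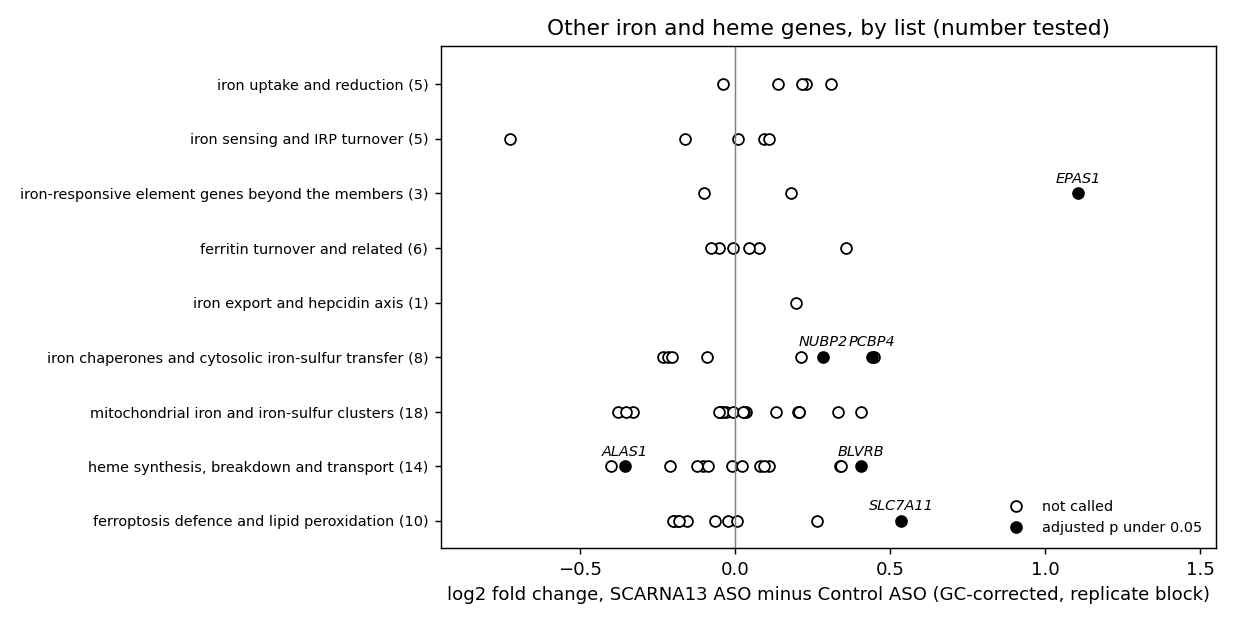
Log2 fold change, SCARNA13 ASO minus Control ASO, of the 70 other iron and heme genes tested, by list, from the GC-corrected fit with a replicate block; filled points passed an adjusted p of 0.05. EPAS1, PCBP4, NUBP2, BLVRB and SLC7A11 lie to the right of 0 and ALAS1 to the left, and 64 genes are open points.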

How the data were processed

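Per the labels' protocols, Trizol was used for RNA and an Illumina TruSeq kit for the libraries. The authors deposited 1 FPKM value per gene and library; the unit was read from the values, since the value columns carry only sample titles. The submitters' processing notes list TopHat2 2.0.9, Bowtie2 2.0.6 and hg19, with no role. The counting tool and annotation are not stated. Gene positions in the files are GRCh38: 97.6% of identifiers had the same start and end in GENCODE 29.

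FPKM times gene length was a whole multiple of 1 step per library for 100% of values (tolerance 0.01 reads), which gave reads. The implied library sizes equal median-of-ratios size factors times the geometric mean of totals.

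Groups came from sample titles. Tests were limma 3.58.1 (R 4.3.3) on log2(FPKM + 0.5), two-sided, with Benjamini-Hochberg adjustment over all genes tested. Genes needed a mean of 1 FPKM. This scale understates changes of low genes. Same numbers were taken as pairs, which the labels do not state. Deviations from the group mean correlated at 0.835, 0.785 and 0.915 between same-numbered libraries. Crossed pairs of replicates 1 and 2 gave 0.814 and 0.805. Deviations sum to 0 within a group, so an outlying replicate 3 alone can make replicates 1 and 2 correlate. The correlations set replicate 3 apart but cannot show which of replicates 1 and 2 belong together. GC content, from the longest GENCODE 29 transcript, was removed by loess (span 0.5). Exact permutation tests of 3 against 3 values cannot go below p = 0.1. Every pair of libraries differed beyond counting noise (lowest chi-square per gene, 3.16).

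Named genes followed a rule: the 10 genes, list genes that passed and up to 4 of each list with the smallest p, the 3 highest ferritin pseudogenes, the 3 genes most like FTH1 and FTL, and overlapping genes. Not all are printed. The genes and lists were chosen with earlier results of these data known, so none is independent support.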

Additional observations from a re-analysis of the deposited data

How the results depend on the processing

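Direction is not settled for most of the 10 genes, since it turned with the libraries used. With GC correction and a replicate block, 526 genes and 6 of the 70 other iron genes were called in place of 0, and with no filter on low values that fit called 0 of both. The block alone called 0 genes (2598 at an unadjusted p under 0.05), as did GC correction alone (966), other pseudocounts, other filters (with no correction or block), no intensity trend, read-total scaling and limma-voom. Without replicate 1, 2 or 3 of both groups, that corrected and blocked fit called 14, 0 and 763 genes and from 0 to 8 list genes. In it FTL stood at 0.055, FTH1 at 0.047, SLC11A2 at -0.043 and NCOA4 at -0.089 without replicate 3, and NCOA4 at -0.014 without replicate 1. Replicates 1 and 2 alone, with no block, a fit added after the data were seen, called 922 genes, 9 list genes and 1 of the 10 (TFRC, -0.26). Leaving out single libraries, log2 fold changes ran from -0.58 to 0.47 for FTL, -0.32 to 0.17 for FTH1, -0.49 to 0.12 for TFRC, -0.17 to 0.22 for SLC11A2, -0.0082 to 0.075 for SLC39A14, -0.39 to 0.30 for NCOA4, -0.27 to 0.0034 for STEAP3, -0.25 to 0.0063 for PCBP1 and -0.063 to 0.10 for PCBP2. Without replicate 3 of both groups and with no block, FTL stood at 0.047, FTH1 at 0.020, NCOA4 at -0.11, SLC11A2 at -0.062 and PCBP2 at -0.026. In that fit SLC39A14 stood at 0.031 and PCBP1 at -0.085, against 0.036 and -0.16 in the first test over all libraries. No setting that kept all libraries turned a sign among the 9. The cause was not tested. Low reads limit IREB2 (39 in one library) and SLC11A2 (112).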
